A study of Oryza sativa with 18 samples.

Results

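This is a direct comparison of the rice lines oscoi2 and oscoi1ab, both treated with jasmonic acid (JA) for 6 h. It uses 6 of the 18 libraries of the series, 3 of oscoi2 plants with JA against 3 of oscoi1ab plants with JA, taken by their line and treatment. The tissue was crown root tips of the cultivar Kitaake, pooled from many plants per sample and given 5 µM JA or a mock treatment (DMSO). The oscoi1ab line is homozygous for Cas9 edits in both OsCOI1a and OsCOI1b and keeps OsCOI2, whereas the oscoi2 line carries edits in OsCOI2 and keeps both OsCOI1 genes. Each genotype is 1 edited line, so the effect of the named edit and any other difference between these lines cannot be told apart. Unedited WT plants and the mock libraries of both lines, 3 per group, enter below only as a reference.

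COI proteins are the F-box subunits of the JA receptor. When they bind the isoleucine conjugate of JA (JA-Ile) they recruit JAZ repressors, which are then degraded, and transcription factors such as MYC2 are freed. The induced genes commonly include those of JA synthesis, of JA-Ile breakdown and of the JAZ repressors themselves, together with defense genes, while growth genes are commonly repressed. Arabidopsis has a single COI1 gene and rice has several. The present comparison sets a line edited in OsCOI2 beside a line edited in the OsCOI1 pair, in root tips given JA.

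The target sites define the lines and are therefore given first, each 5′ to 3′ with the PAM (the motif next to the site that Cas9 needs) in capitals. The first target lies in OsCOI1a (LOC_Os01g63420, chromosome 1), the second in OsCOI1b (LOC_Os05g37690, chromosome 5), and the last pair in OsCOI2 (LOC_Os03g15880, chromosome 3).
oscoi1a_gRNA: tgctggaggagcattctacgAGG
oscoi1b_gRNA: ccacatgaccgaactcacagTGG
oscoi2_gRNA1: ttcgacaattgcgcacaaggAGG
oscoi2_gRNA2: atattacaagactttgccggTGG

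The deposited table held 64687 genes, of which 30907 were tested. Library totals lay between 99657931 and 113672521 counts, so depth differed little between libraries. Counts were on a scale of about 3.72 counts per read pair, judged from the spacing of low values, so 3 read pairs correspond to 0.104 CPM (counts scaled to library size). This floor assumes that spacing and covers counting error only. Levels below are CPM after TMM scaling, and log2FC is the level in oscoi2 against that in oscoi1ab, with its standard error (SE), so that a negative value means lower in oscoi2. A gene was called a DEG when its Benjamini-Hochberg FDR in edgeR's quasi-likelihood test was under 0.01 and its log2FC at least 1 in either direction. The methods describe the samples of a group as independent biological samples, so the tests measure the spread between those. OsPLT1, a root stem cell regulator, lay between 53.4 and 83.6 CPM in all 6 JA libraries. OsGLK1, an activator of chloroplast genes, was present as well, at 6.65 to 34.2 CPM, and so were light-harvesting antenna genes.

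Transcripts of OsCOI1a and OsCOI2 were each lower in the line in which the gene is edited. OsCOI1a was at 24.3, 8.38 and 12.8 CPM in the oscoi1ab libraries and at 79.4, 94.0 and 88.6 CPM in the oscoi2 libraries. The libraries did not overlap (log2FC 2.53 ± 0.30, FDR 5.3e-05), and it was also lower there under mock (log2FC 2.09). OsCOI2 was at 40.2, 45.2 and 52.2 CPM in oscoi1ab and at 22.6, 28.6 and 22.3 CPM in oscoi2. This fall of 0.90 in log2FC passed the FDR limit (3.6e-04) but not the fold limit, and without oscoi2 JA library 2 it passed both. OsCOI1b did not follow its editing, with 82.2 to 89.1 CPM in oscoi1ab against 90.7 to 118.9 CPM in oscoi2 (log2FC 0.23 ± 0.11, FDR 0.162). JA itself left all 3 receptor genes uncalled in WT plants.

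With JA the lines differed at 1387 genes, 4.49% of those tested. Of these 687 were higher in oscoi2 (2.22% of all genes) and 700 lower (2.26%). The median log2FC was 1.47 among the higher and -1.62 among the lower DEGs, and 0.01 over all genes tested. Differences larger than 3 in log2FC were more often falls, 128 against 72 rises. The libraries of the lines did not overlap at 682 of the 687 higher and at all 700 lower DEGs, against 17.2% and 17.5% of all genes in those directions (34.7% together). With library size alone as the scaling, the median over all genes moved to 0.14 and the split to 1090 higher and 551 lower DEGs, and 469 higher and 858 lower genes were called by limma-voom. A fit of the compared libraries alone gave 372 higher and 758 lower genes.

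Most of these DEGs were genes that JA changed in WT plants, whose libraries enter neither side of the contrast. Of the 700 genes lower in oscoi2, 631 (90.1%) were induced by JA in WT plants, where 7.48% of all genes were induced, and the other 69 were not called in WT. Of the 687 genes higher in oscoi2, 493 (71.8%) were repressed by JA in WT plants, where 6.56% of all genes were, and 192 were not called. Without oscoi1ab JA library 1, oscoi1ab JA library 3 or oscoi2 JA library 3 the number of WT-repressed genes called higher fell to 307, 297 and 326. Read from the other side, 631 of the 2313 WT-induced genes (27.3%) were called lower in oscoi2, but 95.9% of them had a negative log2FC, with a median of -0.89. Likewise 493 of the 2029 WT-repressed genes (24.3%) were called higher, and only 3.84% had a negative log2FC (median 0.91). The difference between the lines was therefore spread over most JA-responsive genes, most of which did not pass both limits. No gene was called in the sense opposite to WT repression by edgeR's quasi-likelihood test, whereas its likelihood ratio test, DESeq2 and limma-voom each called 1 of these 2029 genes lower, and 6 of them had a negative log2FC at an unadjusted p under 0.05.

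**Figure D1:**
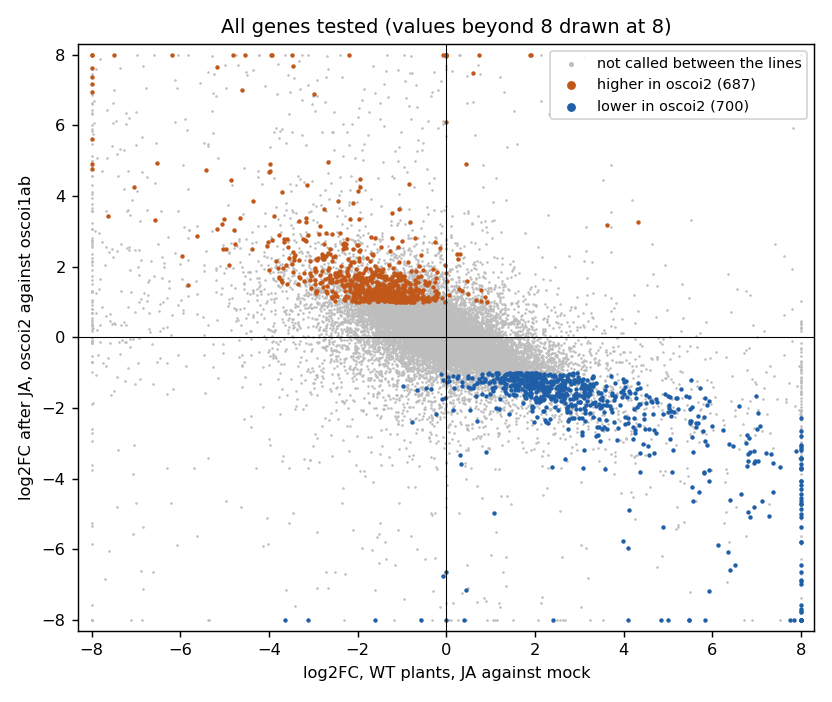
Each point is a gene tested. The x axis is its log2FC in WT plants, JA against mock, and the y axis its log2FC after JA, oscoi2 against oscoi1ab, with the 687 higher and 700 lower DEGs coloured. The lower DEGs lie mostly to the right, among genes that JA induced in WT plants, and the higher DEGs mostly to the left.

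The lines' own responses give the size of the gap, although they share their JA libraries with the contrast. Over the 700 lower DEGs the median log2FC of JA against mock was 2.66 in WT plants, 2.70 in oscoi1ab and 1.02 in oscoi2. Over the 687 higher DEGs it was -1.55, -1.91 and -0.55 in the same order. In oscoi2, where JA induced 2.99% of all genes, 292 of the lower DEGs were still called as induced and 402 were not called, so many of these genes retained a smaller response. Of the higher DEGs 104 were still called as repressed in oscoi2, against 1.47% of all genes.

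The JA pathway itself was among the groups that were lower in oscoi2. Of 9 genes of JA synthesis and conjugation, 5 were lower and 1 higher (list median log2FC -1.04, against 0.01 over all genes). This list, like those for the other pathways below, was assembled in the study partly from these libraries and is not independent evidence of its direction. In most of these lists most genes responded to JA in WT plants. Of all WT-induced genes 27.3% were called lower and of all WT-repressed genes 24.3% higher, against 2.26% and 2.22% of all genes tested. OsAOS1, an allene oxide synthase that commits lipid peroxides to JA, was at 47.9, 35.1 and 50.9 CPM in oscoi1ab against 3.56, 1.69 and 1.00 CPM in oscoi2. Under mock it was near the floor in both lines, and after JA every oscoi1ab library exceeded every oscoi2 library (log2FC -4.42 ± 0.64, FDR 2.4e-04). OsAOS2, which encodes another enzyme of that step, was at 252.7, 258.0 and 267.7 CPM against 100.1, 63.3 and 96.2 CPM (log2FC -1.58 ± 0.21, FDR 1.1e-04). The lipoxygenase gene OsLOX9 was at 71.9, 40.7 and 39.3 CPM against 9.67, 6.19 and 2.95 CPM (log2FC -3.01 ± 0.52, FDR 9.0e-04). Without oscoi1ab JA library 1 only 3 of the 9 genes were called lower.

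Other steps of JA synthesis differed less. OsAOC, the allene oxide cyclase gene, passed the FDR limit with a log2FC of -0.75 ± 0.14 (FDR 0.00162), short of the fold limit. OsPLD5, a phospholipase D gene, overlapped between the lines at 177.7 to 227.7 CPM against 82.3 to 223.5 CPM (log2FC -0.41 ± 0.31, FDR 0.408). The exception in direction was OsJAR2, a member of the family that conjugates JA to amino acids, at 0.864, 2.43 and 1.83 CPM in oscoi1ab and 6.05, 5.78 and 4.56 CPM in oscoi2. JA repressed this gene in WT plants (log2FC -3.77). Under mock OsJAR2 was called lower in oscoi2 instead (log2FC -2.03, FDR 0.00722). Its call after JA was marginal (log2FC 1.68 ± 0.41, FDR 0.00984). That call was lost in 11 of the 12 fits that left out 1 library, all but that without oscoi1ab JA library 2 (FDR 0.0102 to 0.0459). It was also lost by limma-voom (FDR 0.0398), in a fit of the compared libraries alone (FDR 0.0176) and with DESeq2's size factors (FDR 0.0103).

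Genes for the breakdown of JA-Ile were lower too, 4 of 5 (list median log2FC -1.71). The cytochromes P450 of the CYP94 family oxidise JA-Ile. OsCYP94B4 was at 374.0, 380.8 and 333.4 CPM in oscoi1ab and at 120.3, 106.8 and 105.3 CPM in oscoi2 (log2FC -1.71 ± 0.27, FDR 5.0e-04). OsCYP94C2a was at 36.4, 43.3 and 41.0 CPM against 7.80, 9.01 and 11.1 CPM (log2FC -2.11 ± 0.37, FDR 0.00108). OsCYP94B5 had the largest gap, 11.2 to 17.5 CPM against 0.874 to 1.21 CPM (log2FC -3.81 ± 0.73, FDR 0.00187). Without oscoi2 JA library 3 the list had 2 calls, as OsCYP94B5 (FDR 0.0122) and OsCYP94C2b missed the limit, and OsCYP94C2b did so without oscoi2 JA library 2 as well (FDR 0.0107 without library 3 and 0.0112 without library 2). OsAH8, listed as an amidohydrolase of this pathway, differed by a log2FC of only -0.44 ± 0.10 (FDR 0.00834).

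For 2 of these P450 genes the order of the lines was reversed by JA. Under mock OsCYP94B4 was higher in oscoi2, at 11.8 ± 2.15 CPM against 4.68 ± 2.08 CPM in oscoi1ab (SD, n = 3, log2FC 1.33), and OsCYP94C2b at 4.35 ± 2.12 against 0.915 ± 0.159 CPM (log2FC 2.25). Both mock differences were called by edgeR's quasi-likelihood test, as were the falls after JA. By limma-voom only 1 gene of this list was called higher under mock, and mock calls depended on the fit, as given below.

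The OsJAZ repressor genes showed the same pattern on a larger scale. Of 15 listed genes 14 passed the filter on low counts (OsJAZ14 did not), 9 were lower in oscoi2 and none was called higher by either edgeR test, DESeq2 or limma-voom, nor had any a positive log2FC at an unadjusted p under 0.05 (list median log2FC -2.10). OsJAZ11 was at 508.6, 435.1 and 494.0 CPM in oscoi1ab and at 83.1, 70.1 and 81.6 CPM in oscoi2 (log2FC -2.61 ± 0.42, FDR 5.6e-04). OsJAZ12 was at 284.4, 234.9 and 242.5 CPM against 43.3, 43.8 and 45.0 CPM (log2FC -2.53 ± 0.42, FDR 6.8e-04). OsJAZ9 was at 41.8, 31.1 and 35.9 CPM against 1.86, 2.08 and 3.64 CPM (log2FC -3.84 ± 0.51, FDR 1.0e-04). In these genes the libraries of each line lay close together and far from those of the other line.

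Not every OsJAZ gene moved that far. OsJAZ7 fell short of the fold limit, at 1296 to 1808 CPM against 659.0 to 859.3 CPM (log2FC -0.96 ± 0.21, FDR 0.00451). OsJAZ10 just missed the FDR limit (log2FC -1.41 ± 0.35, FDR 0.0108), although its libraries did not overlap and the likelihood ratio test and DESeq2 called it. Conversely OsJAZ5 (log2FC -2.85 ± 0.67, FDR 0.00768) was lost by both of these tests and without any 1 of the 6 JA libraries (FDR 0.013 to 0.0415), with FDR of 0.0172 and 0.0395 in those tests. OsJAZ4 was the single tested member with a positive log2FC, 1.22, and was not called.

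Among regulators that JA induces, OsMYC2, the bHLH factor that JAZ proteins repress, was at 245.6, 261.3 and 275.2 CPM in oscoi1ab and at 144.0, 124.6 and 138.2 CPM in oscoi2 (log2FC -0.94 ± 0.13, FDR 1.6e-04). The separation was complete but under the fold limit. OsbHLH148 was at 95.2, 96.7 and 85.7 CPM against 29.9, 23.2 and 33.4 CPM (log2FC -1.68 ± 0.29, FDR 9.0e-04). OsJAMyb, a JA-induced MYB gene, was at 164.8 to 231.4 CPM against 31.7 to 80.7 CPM (log2FC -1.93 ± 0.39, FDR 0.00267), a call lost without oscoi1ab JA library 1, oscoi2 JA library 1 or oscoi2 JA library 3 (FDR 0.0111 to 0.016). OsMYB30 was not called (log2FC -1.38 ± 0.59, FDR 0.122).

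**Figure D2:**
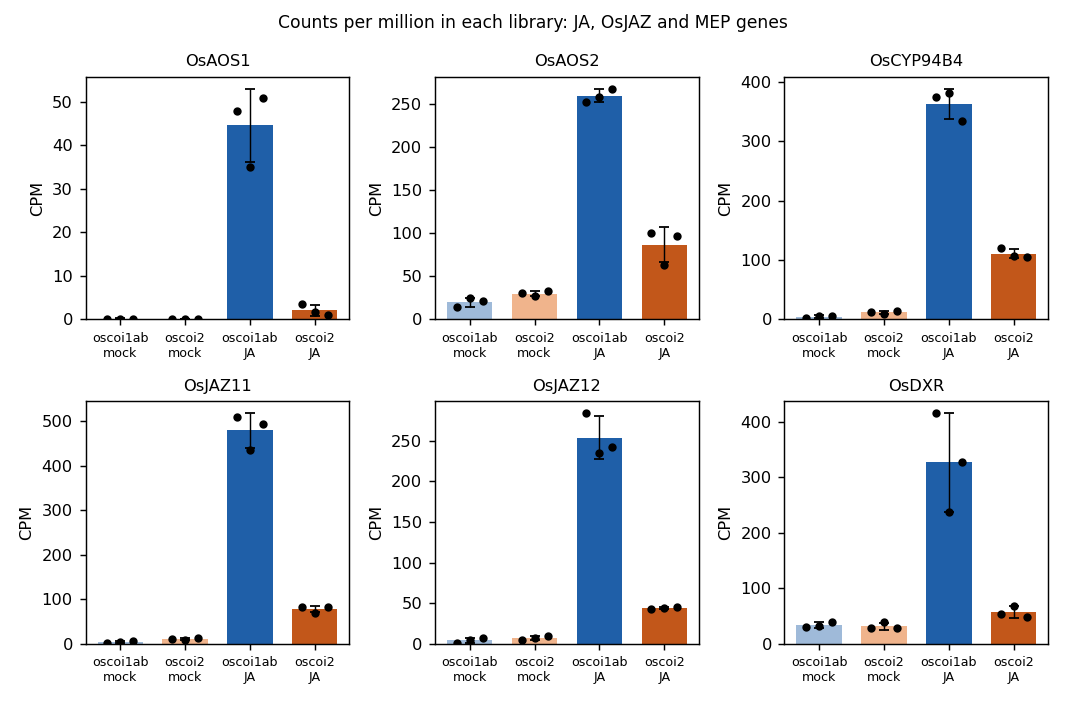
Bars are mean CPM, error bars SD and points single libraries (3 per group) for 4 groups, mock and JA in oscoi1ab and oscoi2. In OsAOS1, OsAOS2, OsCYP94B4, OsJAZ11, OsJAZ12 and OsDXR the oscoi2 libraries with JA lie below every oscoi1ab library with JA, and for OsJAZ11 the levels are 70.1 to 83.1 against 435.1 to 508.6 CPM.

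Defense signalling genes were lower in oscoi2 in 3 of 11 cases, and all 11 had a negative log2FC (median -1.05). JA induced 10 of these 11 genes in WT plants. Among all WT-induced genes 27.3% were called lower and the median log2FC was -0.89, so the list was close to WT-induced genes in general. OsNPR1, a co-activator of salicylic acid signalling, was at 333.6, 323.7 and 334.2 CPM in oscoi1ab and at 147.1, 167.4 and 149.3 CPM in oscoi2. The libraries of each line were within a narrow range (log2FC -1.10 ± 0.10, FDR 7.9e-06), but with library size alone as scaling OsNPR1 no longer reached the fold limit. OsWRKY71 was at 211.0 to 268.6 CPM against 76.5 to 103.9 CPM (log2FC -1.43 ± 0.28, FDR 0.00223) and missed the limit without oscoi2 JA library 1 or 2 (FDR 0.0126 and 0.011). OsWRKY28 (log2FC -2.43 ± 0.52, FDR 0.00422) missed it without any 1 of the 6 JA libraries (FDR 0.0111 to 0.0195). Without oscoi2 JA library 1 or 2 the list had 1 call, and without oscoi1ab mock library 1 or 3 it had 5. OsWRKY53 and the kinase gene OsMPK6 were lower by 0.90 and 0.84 in log2FC, past the FDR limit (0.00255 and 0.00133) and under the fold limit.

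Of 13 defense effector genes, whose products act against pathogens directly or protect cells, 2 were lower and 1 higher (list median log2FC -0.98). The thaumatin-like gene OsPR5 was at 368.0, 234.3 and 226.1 CPM in oscoi1ab against 67.3, 31.4 and 18.1 CPM in oscoi2 (log2FC -2.83 ± 0.38, FDR 1.1e-04). The peroxidase gene OsPOX223 was at 317.2, 215.2 and 227.8 CPM against 81.9, 97.6 and 55.6 CPM (log2FC -1.69 ± 0.23, FDR 1.3e-04). Both differed by more than the spread within a line. The abundant OsPR1a and the glucanase gene OsGns1 did not pass (log2FC -1.08 and -0.97, FDR 0.0235 and 0.0147) though their libraries did not overlap. Without oscoi2 mock library 1, oscoi2 JA library 1 or oscoi2 JA library 2 the number called lower was 4. The higher gene, OsRCLEA8 (2.96 to 5.13 CPM against 8.94 to 22.5 CPM, log2FC 1.70 ± 0.40, FDR 0.00732), was called lower in WT plants after JA and was lost without oscoi1ab JA library 1, 2 or 3 or oscoi2 JA library 1 or 3 (FDR 0.0106 to 0.052), by limma-voom (FDR 0.0306) and in a fit of the compared libraries alone (FDR 0.0176). Without oscoi1ab mock library 1 or oscoi2 mock library 1 a second effector gene was called higher.

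In the pathway that supplies phenylalanine for phenylpropanoids, 1 of 8 shikimate and phenylalanine genes was lower (list median log2FC -0.68). This was OsADT, an arogenate dehydratase gene of the last step to phenylalanine, at 216.5, 232.0 and 212.7 CPM in oscoi1ab and at 106.0, 71.7 and 100.4 CPM in oscoi2 (log2FC -1.25 ± 0.25, FDR 0.00275). It was lost without oscoi2 JA library 2 (FDR 0.0141). A further 4 members of the list passed the FDR limit under the fold limit, such as OsEPSPS (log2FC -0.56 ± 0.12, FDR 0.00359). JA induced all 8 genes in WT plants, and of all WT-induced genes 27.3% were called lower (median log2FC -0.89). Under mock the order was the reverse, with all 8 higher in oscoi2 at an unadjusted p under 0.05 (list median log2FC 0.50). None of these mock differences was called by either edgeR test, DESeq2 or limma-voom.

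General phenylpropanoid genes were lower in 2 of 7 cases (list median log2FC -1.33). Os4CL5, a 4-coumarate:CoA ligase gene, was at 77.6, 80.0 and 60.6 CPM in oscoi1ab against 22.9, 15.4 and 19.2 CPM in oscoi2 (log2FC -1.92 ± 0.36, FDR 0.00176). OsPAL7, a phenylalanine ammonia-lyase gene, was at 711.6, 696.5 and 642.1 CPM against 249.9, 148.0 and 164.8 CPM (log2FC -1.87 ± 0.40, FDR 0.00452). The call of OsPAL7 was lost without oscoi1ab JA library 1, 2 or 3 or oscoi2 JA library 2 or 3 (FDR 0.011 to 0.0252), leaving 1 call, whereas 5 members were called without oscoi1ab mock library 1. OsC4H2, the cinnamate hydroxylase gene, differed little (log2FC -0.29 ± 0.15, FDR 0.197). Under mock 5 of the 7 genes were higher in oscoi2 at an unadjusted p under 0.05 (list median log2FC 0.76), with 0 called by either edgeR test, DESeq2 or limma-voom.

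Lignin genes were lower in 3 of 9 cases (list median log2FC -1.13). OsLAC10, a laccase gene of the family that polymerises lignin, was at 22.6, 9.31 and 10.4 CPM in oscoi1ab and at 0 in all 3 oscoi2 libraries, at least 136-fold lower against the floor of 3 read pairs per library (FDR 2.0e-05, but 0.0407 by limma-voom). OsCAld5H, the coniferaldehyde 5-hydroxylase gene of the syringyl branch, was at 118.8, 111.0 and 115.0 CPM against 18.7 to 28.4 CPM (log2FC -2.32 ± 0.36, FDR 4.5e-04). OsCAD8A was lower as well (log2FC -1.13 ± 0.25, FDR 0.00561), but not with library size alone as the scaling, nor in a fit of the compared libraries alone (FDR 0.0235), nor without oscoi1ab JA library 1 or 2 or oscoi2 JA library 2 or 3 (FDR 0.0144 to 0.0285). The O-methyltransferase gene ROMT15 did not overlap between the lines yet differed by only -0.45 ± 0.16 (FDR 0.0644).

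Flavonoid genes gave 2 lower DEGs of 10 (list median log2FC -0.71). OsCHS15, a chalcone synthase gene of the entry to flavonoids, was at 87.4, 50.7 and 65.0 CPM in oscoi1ab and at 0.829, 1.11 and 0.407 CPM in oscoi2. The oscoi2 levels after JA were near those under mock, where the mean was 0.792 ± 0.692 CPM (SD, n = 3), and the difference was large (log2FC -6.43 ± 1.13, FDR 0.00106). OsCHI4, a chalcone isomerase gene, was at 36.1, 29.9 and 30.8 CPM against 14.5, 11.2 and 12.6 CPM (log2FC -1.34 ± 0.18, FDR 1.1e-04). OsLDOX3 was at 412.6 to 475.5 CPM against 95.6 to 148.8 CPM and was not called (log2FC -1.81 ± 0.53, FDR 0.0248).

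The plastid MEP pathway, which makes isoprenoid precursors, was the largest of the lists in which every member was called. All 5 genes were lower in oscoi2 (list median log2FC -2.52). OsDXR, the reductoisomerase gene, was at 415.3, 238.0 and 326.3 CPM in oscoi1ab and at 53.6, 68.8 and 47.4 CPM in oscoi2 (log2FC -2.53 ± 0.27, FDR 1.9e-05). OsGGPS1, a geranylgeranyl diphosphate synthase gene, was at 312.6, 199.2 and 247.7 CPM against 42.9, 52.7 and 36.7 CPM (log2FC -2.52 ± 0.29, FDR 3.8e-05). OsHDS was at 560.5, 278.1 and 394.1 CPM against 98.7, 115.3 and 67.9 CPM (log2FC -2.13 ± 0.28, FDR 9.1e-05). In all 3 genes oscoi1ab JA library 1 was the highest and library 2 the lowest of that line, yet the lines stayed apart. OsDXS3, the gene of the first enzyme, was at 206.7, 135.0 and 188.9 CPM against 3.20, 14.0 and 4.37 CPM (log2FC -4.62 ± 0.96, FDR 0.00347), a call lost without oscoi2 JA library 1 or 3 (FDR 0.0204 and 0.0223). Under mock the lines did not differ in these genes (list median log2FC -0.08), with 0 called by either edgeR test, DESeq2 or limma-voom and 0 at an unadjusted p under 0.05.

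Downstream lie the diterpene phytoalexins, of which labdane-related ones are the main group in rice. Of 19 phytoalexin genes 8 were called lower in oscoi2, and all 19 had a negative log2FC, with a median of -5.21. Their summed level was 912.8, 462.7 and 702.4 CPM in oscoi1ab and 32.4, 132.3 and 46.8 CPM in oscoi2. Individual genes varied widely between the libraries of a line. OsCPS2, the ent-copalyl diphosphate synthase gene, was at 30.4, 7.35 and 20.5 CPM in oscoi1ab and was seen in 1 oscoi2 library only, at 0.208 CPM (FDR 5.3e-04). OsCYP76M6, a P450 gene of the same cluster, was at 19.9, 3.40 and 13.9 CPM against 0 in every oscoi2 library, at least 119-fold lower (FDR 8.7e-04). OsTPS28, which the study places in a gene cluster leading to diketo-casbene, was at 1.04 to 1.97 CPM against 0, at least 15-fold lower (FDR 4.7e-04). OsCYP71Z21 was at least 14-fold lower (FDR 0.00186). By limma-voom OsCYP76M6 and OsCPS2 were not called (FDR 0.128 and 0.0605).

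The most abundant members of the phytoalexin list were not called. OsCPS4, the syn-copalyl diphosphate synthase gene of the momilactone branch, was at 398.1, 170.3 and 271.6 CPM in oscoi1ab and at 5.14, 43.2 and 8.05 CPM in oscoi2. Its large log2FC of -3.90 came with an SE of 1.37 (FDR 0.0588, but 0.0052 by limma-voom). Of the oscoi2 libraries, JA library 2 stood above the other two, and without it the FDR was 0.038. OsCYP99A3 behaved alike, with 7.75, 35.2 and 9.43 CPM in oscoi2 (log2FC -2.41 ± 1.08, FDR 0.139). That library also had the highest summed level of the list among oscoi2 libraries with JA, and under mock oscoi2 library 1 had the lowest, 2.97 CPM, where the highest was at 75.5 CPM.

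Of the diterpenoid regulators 2 of 3 tested genes were lower. OsWRKY10 was at 270.9, 344.8 and 295.3 CPM in oscoi1ab and at 87.4, 90.6 and 77.9 CPM in oscoi2 (log2FC -1.83 ± 0.22, FDR 4.7e-05). OsDPF, a bHLH activator of phytoalexin genes, was at 82.4, 77.0 and 76.8 CPM against 3.80, 5.81 and 3.01 CPM (log2FC -4.23 ± 0.93, FDR 0.00512). Its libraries were tight within each line, but the call was lost without oscoi1ab JA library 1 or 3 or any of the oscoi2 JA libraries (FDR 0.0131 to 0.029). OsTGAP1, a bZIP gene, was lower by 0.78 in log2FC (SE 0.13, FDR 5.4e-04), under the fold limit.

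**Figure D3:**
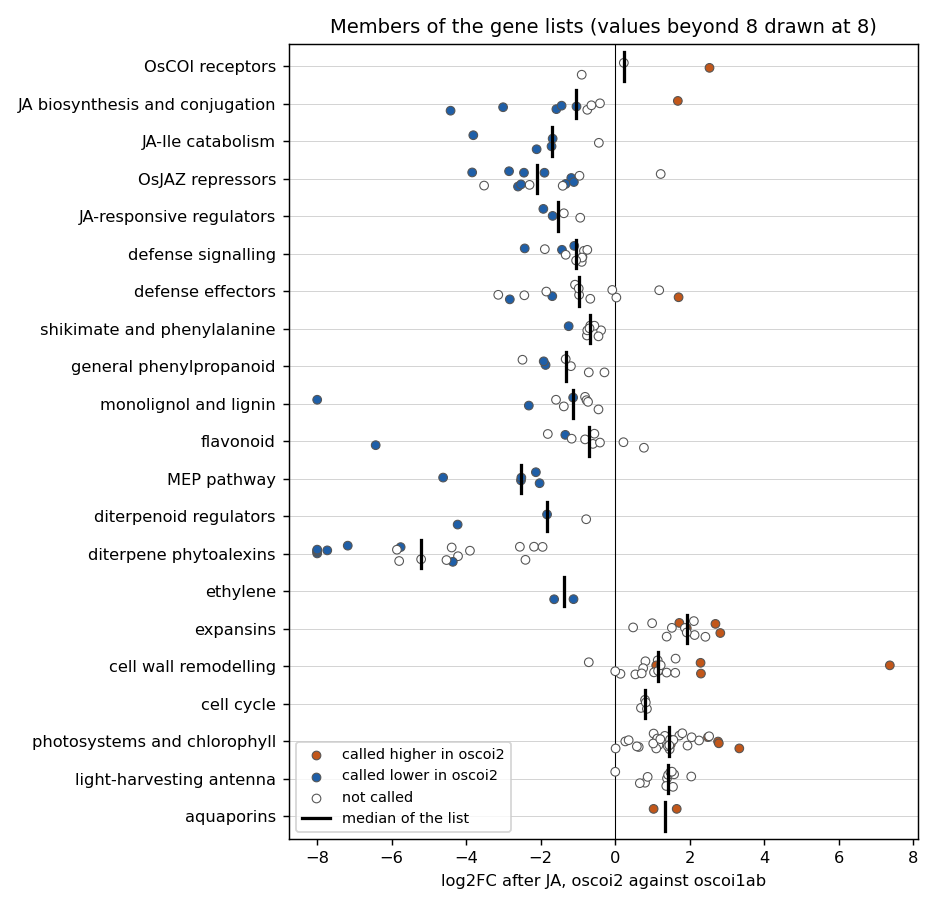
Each point is a gene of the list named on the y axis and the x axis is its log2FC after JA, oscoi2 against oscoi1ab, coloured by call, with the list median as a bar. Lists of JA, defense and terpenoid genes lie left of 0, down to a median of -5.21 for phytoalexins, and those of expansins, photosystems and aquaporins lie right of it.

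Growth genes went the other way. Expansins loosen cell walls, and 4 of 13 expansin genes were higher in oscoi2, with all 13 log2FC positive (median 1.92). JA repressed 10 of these 13 genes in WT plants. Among all WT-repressed genes 24.3% were called higher and the median log2FC was 0.91. OsEXPB7 was at 6.39, 6.81 and 8.42 CPM in oscoi1ab and at 42.3, 39.9 and 57.5 CPM in oscoi2 (log2FC 2.69 ± 0.25, FDR 8.1e-06). OsEXP13 was at 1.82, 2.97 and 2.44 CPM against 8.13, 7.47 and 11.9 CPM (log2FC 1.92 ± 0.33, FDR 8.2e-04). Under mock both genes were similar in the lines, 75.4 ± 20.4 and 89.8 ± 7.50 CPM for OsEXPB7 (SD, n = 3). OsEXP12 was called (log2FC 1.72 ± 0.41, FDR 0.00775), but not without oscoi1ab mock library 2, oscoi1ab JA library 1 or 3, oscoi2 mock library 3 or oscoi2 JA library 1 or 3 (FDR 0.0104 to 0.0454), nor by limma-voom (FDR 0.0304) or in a fit of the compared libraries alone (FDR 0.0155). Its mock log2FC was 0.77 (FDR 0.235), and its response to JA was not called different between the lines (log2 difference 0.95, FDR 0.333). OsEXP4, the expansin with the highest level among those not called, had a log2FC of 1.38 ± 0.36 (FDR 0.0148).

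Of 19 other wall-remodelling genes 4 were higher (list median log2FC 1.14). JA repressed 16 of these 19 genes in WT plants, so the list was close to WT-repressed genes in general (24.3% called higher, median log2FC 0.91). OsXTH12, a xyloglucan endotransglucosylase/hydrolase gene, was at 6.19, 15.0 and 8.27 CPM in oscoi1ab and at 37.3, 47.5 and 59.9 CPM in oscoi2 (log2FC 2.29 ± 0.29, FDR 7.6e-05). OsXTH2 was at 3.45 to 8.73 CPM against 24.8 to 38.4 CPM (log2FC 2.30 ± 0.49, FDR 0.00392) and was lost without oscoi1ab JA library 2 or 3 or oscoi2 JA library 1 or 3 (FDR 0.0112 to 0.0238). OsUMA3 (log2FC 1.10 ± 0.21, FDR 0.00165) was lost without oscoi1ab JA library 3 or oscoi2 JA library 3 (FDR 0.012 and 0.0103), which left 2 calls each. Under mock OsXTH2 and OsUMA3 were also higher in oscoi2, though not called (log2FC 1.02 and 0.79, FDR 0.179 and 0.0237). JA repressed both in oscoi2 too (log2FC -2.68 and -1.19), and their responses were not called different between the lines (FDR 0.256 and 0.576). The remaining call, OsXTH16, rested on 0.0755 to 0.387 CPM in oscoi2 against 0 in oscoi1ab, close to the floor, and was lost by limma-voom and in a fit of the compared libraries alone (FDR 0.137 and 0.0625), as well as with counts rescaled by their low-value spacing (FDR 0.0167). The cell cycle genes OsCDKB1, OsCDKB2, OsCYCB1-1 and OsCYCB2-2 had 0 calls by either edgeR test, DESeq2 or limma-voom, but all 4 were higher past the FDR limit and under the fold limit, for example OsCYCB1-1 at 33.8, 34.9 and 24.9 CPM against 65.6, 50.2 and 52.4 CPM (log2FC 0.85 ± 0.15, FDR 0.00122). All 4 were also higher in oscoi2 under mock at an unadjusted p under 0.05 (list median log2FC 0.51 under mock and 0.81 after JA), and none had an interaction call. Without oscoi1ab JA library 1 a single cell cycle gene passed both limits. Both tonoplast aquaporin genes kept in the list, which the study had already listed as DEGs of these libraries, were higher. OsTIP2;1 was at 89.1, 99.1 and 48.8 CPM against 234.2, 192.7 and 316.0 CPM (log2FC 1.65 ± 0.28, FDR 8.7e-04). It was higher in oscoi2 under mock too, at 453.7 to 677.2 against 185.4 to 292.7 CPM (log2FC 1.19, FDR 0.0153), and its response to JA was not called different between the lines (log2 difference 0.46, FDR 0.532). OsTIP1;2 was at 49.9 to 87.6 CPM against 114.5 to 144.1 CPM (log2FC 1.03 ± 0.22, FDR 0.00434). The call of OsTIP1;2 was lost without oscoi1ab JA library 1 or 3 or oscoi2 JA library 2 or 3 (FDR 0.013 to 0.0255) and in a fit of the compared libraries alone (FDR 0.0135), and under mock this gene was lower in oscoi2 (log2FC -1.20).

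Photosystem and chlorophyll genes were higher in oscoi2 in 5 of 29 cases. All 29 had a positive log2FC (median 1.45). JA repressed 28 of the 29 in WT plants, and of all WT-repressed genes 24.3% were called higher. The antenna genes had a median of 1.40 with none of 12 called by either edgeR test, DESeq2 or limma-voom, although 6 were higher at an unadjusted p under 0.05 and up to 8 were called under other settings. The summed photosystem level was 60.7, 191.8 and 169.3 CPM in oscoi1ab and 229.0, 435.6 and 348.3 CPM in oscoi2. Under mock the order was the reverse, 702.7 to 1249 CPM in oscoi1ab against 242.3 to 487.0 CPM in oscoi2, with a list median log2FC of -1.24. None of these mock differences was called by edgeR's quasi-likelihood test, but 19 of the 29 genes were lower at an unadjusted p under 0.05 and 3, 6 and 4 were called by edgeR's likelihood ratio test, DESeq2 and limma-voom. After JA the summed level in oscoi2 was thus near its mock level, whereas that of oscoi1ab was lower than under mock in every library. A smaller share of green cells and less RNA per cell cannot be told apart in such bulk samples.

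OsPsbR3, a photosystem II subunit gene, was at 0.551, 1.09 and 1.32 CPM in oscoi1ab and at 2.72, 9.27 and 4.66 CPM in oscoi2 (log2FC 2.49 ± 0.50, FDR 0.00288). OsPsb27 was at 0.281, 1.28 and 0.567 CPM against 2.00, 7.70 and 4.74 CPM (log2FC 2.76 ± 0.57, FDR 0.00315). Both were lost without oscoi1ab JA library 1 or oscoi2 JA library 2, OsPsbR3 also without oscoi1ab JA library 2 and OsPsb27 without oscoi1ab JA library 3 (FDR 0.01 to 0.0185 and 0.0132 to 0.0199). In the list as a whole 1 gene was called without oscoi1ab JA library 1, which had the lowest summed level, and 2 without oscoi1ab JA library 3 or oscoi2 JA library 2. None of OsPsbR3, OsPsb27, OsPsbP-3 and OsMgMT was called by limma-voom (FDR 0.0277 to 0.163) or in a fit of the compared libraries alone (FDR 0.0131 to 0.0428). The more abundant OsPsbO did not pass (2.61, 14.0 and 13.3 CPM against 22.8, 52.8 and 39.8 CPM, log2FC 1.94 ± 0.59, FDR 0.0301).

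**Figure D4:**
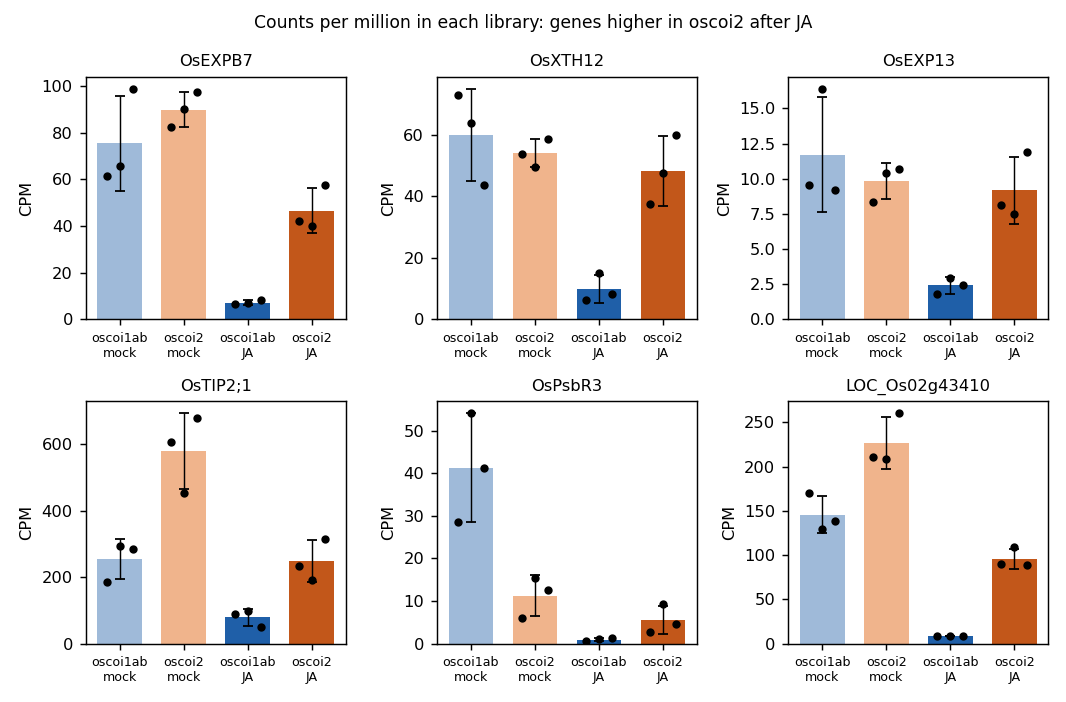
Bars are mean CPM, error bars SD and points single libraries (3 per group) under mock and JA. In OsEXPB7, OsXTH12, OsEXP13, OsTIP2;1, OsPsbR3 and LOC_Os02g43410 every oscoi2 library with JA lies above every oscoi1ab library with JA, for LOC_Os02g43410 89.1 to 109.1 against 8.31 to 9.23 CPM. Under mock OsPsbR3 has the opposite order, with every oscoi2 library below every oscoi1ab library.

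The 351 transcription factor genes listed in the study comprised 57 lower and 20 higher DEGs (list median log2FC -0.38), against 2.26% and 2.22% of all genes. The study listed them as DEGs of these same libraries, so they were chosen for a response to JA and their counts are not independent evidence. WRKY genes, a family prominent in defense, had 10 lower and 1 higher of 34. C2H2 zinc finger genes had 7 lower and 1 higher of 21, MYB genes 6 and 1 of 24, and bHLH genes 9 and 6 of 40. The list counts depended on single libraries, since 34 and 37 genes were called lower without oscoi2 JA library 1 and oscoi1ab JA library 3, and 6, 9, 12 and 11 higher without oscoi1ab JA library 1, oscoi1ab JA library 3, oscoi2 JA library 1 and oscoi2 JA library 3. LOC_Os12g37690, described as a MYB-like gene, was at 36.6, 18.8 and 38.5 CPM in oscoi1ab against 0.607, 1.28 and 1.05 CPM in oscoi2 (log2FC -4.99 ± 0.73, FDR 2.4e-04). OsbHLH27 was at 10.5 to 16.6 CPM against 0 to 0.264 CPM (FDR 6.0e-04, but 0.0114 by limma-voom). OsWOX11, a homeobox gene that promotes crown root formation, was at 13.3, 14.5 and 18.6 CPM against 3.25, 2.48 and 1.82 CPM (log2FC -2.62 ± 0.34, FDR 1.0e-04).

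Among higher factors OsILI1, an atypical bHLH gene named for lamina inclination, was at 0.617, 0.991 and 0.665 CPM in oscoi2 and at 0 in all oscoi1ab libraries, at least 7.29-fold higher (FDR 0.00146). OsWR3 was at 0.453, 1.21 and 0.943 CPM against 0.0432, 0.115 and 0.0873 CPM (log2FC 3.39 ± 0.50, FDR 2.9e-04). Such low levels rest on few read pairs, and limma-voom called neither gene (FDR 0.0603 and 0.0698). OsRSL2, a root hair bHLH gene, was at 4.09, 4.44 and 1.72 CPM in oscoi1ab and at 14.7, 6.99 and 13.6 CPM in oscoi2 (log2FC 1.78 ± 0.37, FDR 0.00366), a call lost without oscoi1ab JA library 1 or 3 or oscoi2 JA library 1 or 3 (FDR 0.0104 to 0.0176) and in a fit of the compared libraries alone (FDR 0.0194). The abundant OsNAC9 was lower in oscoi2 under the fold limit, at 640.4 to 836.7 CPM against 371.1 to 452.7 CPM (log2FC -0.77 ± 0.12, FDR 4.8e-04).

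Other hormones were represented by few genes. Textbook genes were kept only where the study had listed them as DEGs of these libraries, so their calls are not independent evidence. Both ethylene genes kept were lower. OsACS2, an ACC synthase gene of ethylene synthesis, was at 43.8, 34.3 and 33.8 CPM in oscoi1ab and in oscoi2 at no more than 13.8 CPM (log2FC -1.64 ± 0.25, FDR 3.6e-04). OsEIL2, an EIN3-like factor gene, was at 404.4, 450.3 and 412.9 CPM against 191.7, 193.9 and 199.1 CPM (log2FC -1.12 ± 0.12, FDR 2.9e-05), without a call when only library size was used as the scaling. The gibberellin synthesis genes OsKS1 and OsCPS1 were not called (FDR 0.069 and 0.528). Nor were the transporter genes OsIRT1 for iron, at 53.2 to 71.8 against 52.3 to 69.2 CPM (log2FC -0.16 ± 0.35, FDR 0.814), and OsNRT2.1 for nitrate (log2FC -0.54 ± 0.55, FDR 0.562). These single transporter genes do not show how other genes for iron or nitrate uptake behaved.

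Across all genes the best separated were found outside these lists. LOC_Os02g43410, with no name in the annotation used, had the lowest FDR of the higher DEGs above 50 CPM, at 9.23, 8.89 and 8.31 CPM in oscoi1ab and 90.2, 109.1 and 89.1 CPM in oscoi2 (log2FC 3.45 ± 0.17, FDR 1.7e-08). The neighbouring identifiers LOC_Os03g19427 and LOC_Os03g19420 were at 2.51 to 7.29 and 2.90 to 9.04 CPM against 118.4 to 180.9 and 135.8 to 180.5 CPM (log2FC 4.74 ± 0.35 and 4.44 ± 0.38, FDR 1.2e-06 and 3.5e-06). All 3 were repressed by JA in WT plants, by -3.90, -5.41 and -4.85 in log2FC. LOC_Os11g04020 was at 1.31, 1.61 and 1.31 CPM against 24.8, 59.4 and 43.6 CPM (log2FC 4.92 ± 0.34, FDR 4.3e-07).

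On the lower side LOC_Os06g12740, a conserved hypothetical gene, was at 99.2, 124.0 and 109.8 CPM in oscoi1ab and at 21.5, 21.6 and 21.6 CPM in oscoi2 (log2FC -2.36 ± 0.13, FDR 2.1e-08). 2ODD23, a 2-oxoglutarate-dependent oxygenase gene, was at 278.7, 227.0 and 258.3 CPM against 62.5, 63.8 and 67.8 CPM (log2FC -1.98 ± 0.12, FDR 5.7e-08). Genes with almost no reads in oscoi2 included OsEnS-64, at 33.8, 34.4 and 33.8 CPM against 0, 0 and 0.0397 CPM (FDR 4.5e-05), and the transferase gene OsTBT2, at 24.9, 8.42 and 6.44 CPM against 0, 0.00944 and 0 CPM (FDR 4.6e-05, but 0.0696 by limma-voom). The ABC transporter gene ABCG23 was at 56.7, 40.0 and 27.7 CPM against 0, at least 399-fold lower (FDR 0.0035), a call lost without any 1 of the oscoi2 JA libraries (FDR 0.0114 to 0.0145) and by limma-voom (FDR 0.0437). LOC_Os10g23900, similar to tryptophan decarboxylase, was at 6.53 to 24.9 CPM against 0.00944 to 0.0397 CPM (FDR 1.0e-04, but 0.0502 by limma-voom).

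Fewer genes were called between the lines without JA. At an unadjusted p under 0.05 in edgeR's quasi-likelihood test the numbers were closer, 7859 genes under mock and 9581 after JA. Under mock 228 genes differed between the lines, 0.738% of those tested, with 105 higher (0.340%) and 123 lower (0.398%) in oscoi2. Only 45 of the 1387 DEGs after JA were called in the same direction under mock and 24 in the opposite direction, so 1318 were called after JA alone, which is no test of a difference between treatments. The mock count was unstable, at 3 in a fit of the mock libraries alone, at 19, 36, 41, 65 and 75 without oscoi2 mock library 1, oscoi1ab mock library 2, oscoi2 mock library 3, oscoi1ab mock library 1 and oscoi1ab mock library 3, and at 420 without oscoi2 mock library 2. The same-direction count without these 5 mock libraries was 12, 16, 17, 24 and 19 in that order. The test of the difference itself, the interaction of line and JA, called 1042 genes (3.37%). Among them were 303 of the 700 lower DEGs, with a more negative response in oscoi2 as for 1.85% of all genes, and 253 of the 687 higher DEGs, with a more positive one as for 1.52% of all genes. The interaction shares its libraries with both contrasts.

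**Figure D5:**
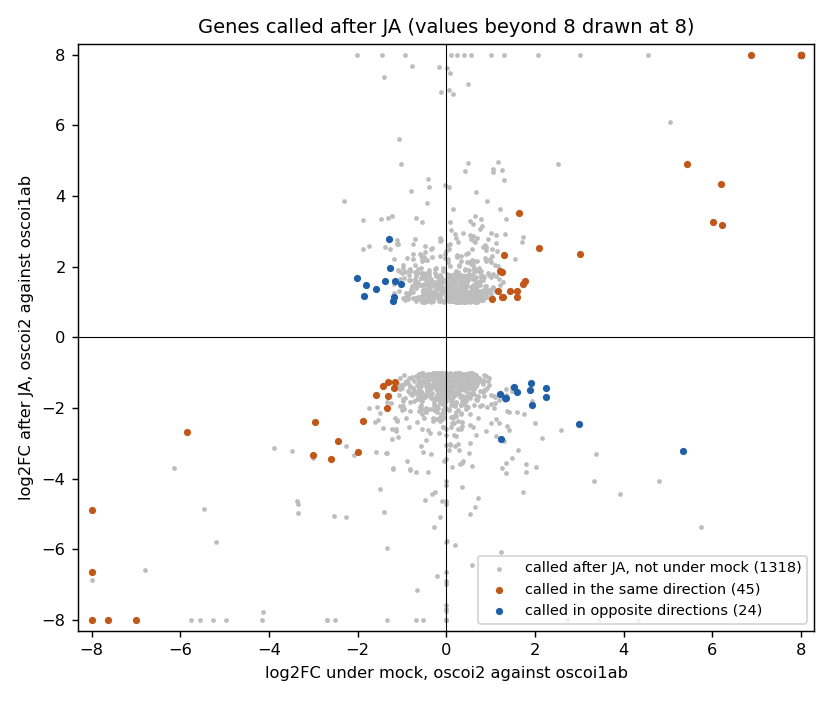
Each point is 1 of the 1387 DEGs after JA. The x axis is its log2FC under mock and the y axis its log2FC after JA, oscoi2 against oscoi1ab. The 45 genes called in the same direction and the 24 called in opposite directions are coloured, and most of the other points lie near 0 on the x axis.

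A few genes marked the lines whatever the treatment. LOC_Os03g02470 was at 42.7, 11.0 and 39.9 CPM in oscoi2 with JA and at 0 in oscoi1ab, at least 300-fold higher, and at 26.6 ± 14.0 CPM (SD, n = 3) against 0 under mock. LOC_Os03g18779 was at 42.4, 28.2 and 12.3 CPM against 0.0324, 0 and 0 CPM, and also called higher under mock. In the other direction LOC_Os07g05850, described as a CACTA transposon gene, was at 17.4, 86.1 and 78.2 CPM in oscoi1ab and at 0, 0.113 and 0.298 CPM in oscoi2, and its neighbour LOC_Os07g05840 at 35.4, 196.8 and 160.1 CPM against 0.154, 0.198 and 0.735 CPM. Both were called lower under mock as well. JA changed none of these 4 genes in WT plants at the limits used, and limma-voom called none of them between the lines (FDR 0.0232 to 0.194).

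The 2 genes that JA induced in WT plants and that were nonetheless higher in oscoi2 were of this kind too. LOC_Os12g02210, described as similar to a C3HC4 zinc finger gene, was at 3.73, 6.18 and 4.61 CPM in oscoi1ab and at 63.9, 40.5 and 34.1 CPM in oscoi2 (log2FC 3.25 ± 0.38, FDR 4.5e-05). Under mock it was at 0.304 ± 0.139 against 19.6 ± 5.12 CPM (SD, n = 3), so it rose in both lines from different levels. Os12g0113600, a hypothetical gene, was at 2.30, 3.26 and 3.05 CPM against 34.5, 27.1 and 16.7 CPM (log2FC 3.18 ± 0.57, FDR 0.00122), and likewise higher under mock.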

How the data were processed

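RNA of crown root tips was sequenced in 3 libraries for each of WT, oscoi1ab and oscoi2 plants under mock or JA. According to the methods and labels, the authors trimmed reads with cutadapt, mapped them with HISAT2, assembled transcripts with StringTie and turned the result into a table of counts per gene with an in-house script (versions not given in the sources used here). The deposited counts are whole numbers without normalization, and no column was left unused.

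The test covered genes whose counts summed to 180 or more across all 18 libraries, in 1 fit of 6 groups with edgeR 4.0.16 (TMM, quasi-likelihood F test, R 4.3.3), after the limits of the study. SE is the size of log2FC divided by the square root of F. CPM uses the TMM-scaled library size. Mock and JA libraries of equal number deviated together in WT (r of 0.362 to 0.46). This was less clear in oscoi2 (0.132 to 0.566) and oscoi1ab (0.056 to 0.29). In each of these lines the lowest value lay below that of a pair of unequal number (0.163 in oscoi2 and 0.0737 in oscoi1ab). The pairing is read from the data, as no label gives it, so a block within each line was added for contrasts of JA against mock. The fit was tested on simulated data with known changes. DESeq2 1.42.0 and limma 3.58.1 served as alternatives, beside other scalings, filters and limits, the replicate number as a block, fits without each library in turn and, added after the data were seen, a rescaling of the counts by their low-value spacing. Tables and figures used Python 3.11.15, numpy 2.4.6, pandas 2.3.3 and matplotlib 3.10.9.

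The comparison and gene lists were chosen with earlier results of these data known. Gene lists come from the study and from textbook knowledge. Named genes are the receptors, up to 4 called and 2 abundant uncalled members of each list, and over all genes the largest and best separated differences. Names were given only to identifiers that the study's tables annotate. Members of the textbook lists were kept only where the study's lists of DEGs of these libraries held them. Those lists are therefore short and not independent evidence. Guide sequences come from its supplementary tables.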

Additional observations from a re-analysis of the deposited data

Results flagged for a closer look

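The response to JA differed between the lines at 1042 genes by edgeR's interaction test (FDR under 0.01, log2 difference at least 1), and 66 of the genes named by rule were among them. The values below are the response of oscoi2 minus that of oscoi1ab on the log2 scale, so that a negative value is a smaller induction or a larger repression in oscoi2. They come from the same libraries as the contrasts above.

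Of the JA genes the difference was -2.17 for OsAOS2, -1.45 for OsAOC and -2.06 for OsPLD5, and 3.70 for OsJAR2. It was -5.60 for OsCYP94B5, -3.51 for OsCYP94C2a, -3.04 for OsCYP94B4 and -3.92 for OsCYP94C2b. The repressor genes gave -5.19 for OsJAZ9, -5.01 for OsJAZ5, -4.02 for OsJAZ11, -3.12 for OsJAZ12, -1.35 for OsJAZ7 and -3.26 for OsJAZ10. OsPLD5, OsJAZ7 and OsJAZ10 were thus called here although they were not called between the lines after JA. Under mock OsPLD5 and OsJAZ10 were already called higher in oscoi2 (log2FC 1.65 and 1.84, FDR 0.00603 and 0.00653). OsJAR2 was called lower there under mock (log2FC -2.03, FDR 0.00722). The values for these 3 genes thus include a mock difference between the lines. OsMYC2 gave -1.21 and OsbHLH148 -2.40.

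In defense and phenylpropanoid genes the difference was -3.44 for OsWRKY28, -2.03 for OsWRKY71, -1.04 for OsMPK6 and -1.66 for OsPOX223. It was -2.08 for OsADT, -1.14 for OsEPSPS, -2.54 for Os4CL5, -2.95 for OsPAL7, -1.43 for Os4CL3 and -1.01 for ROMT15. OsCHS15 gave -7.00 and OsCHI4 -1.69, and OsLAC10 gave -17.00, a fitted value that is no measure of size because most of its mock libraries and all its oscoi2 JA libraries were at 0. Terpenoid genes gave -2.44 for OsDXR, -2.45 for OsGGPS1, -2.05 for OsHDS and -1.96 for OsWRKY10. The ethylene genes gave -1.95 for OsACS2 and -1.12 for OsEIL2.

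Positive differences were found for OsEXPB7 (2.44), OsEXP13 (2.18), OsXTH12 (2.45), OsXTH16 (8.78) and OsTIP1;2 (2.23), and for the photosystem genes OsPsbP-3 (5.21), OsPsb27 (3.86), OsPsbR3 (4.36) and OsPsbQ-2 (2.35). For OsXTH16 and OsILI1, at 0 in all oscoi1ab JA libraries, the fitted value is no measure of size, and OsPsbP-3 lay near the floor in those libraries. Of the transcription factor genes OsILI1 gave 9.24, OsWR3 4.08 and OsbHLH037 1.45, while OsDRZ1 gave -8.34, OsOBF1 -1.05, LOC_Os12g37415 -1.08 and OsWOX11 -2.20.

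Among the genes chosen over the whole table, positive differences were 6.67 for LOC_Os03g22590, 4.43 for LOC_Os11g04020, 3.48 for LOC_Os03g19427, 3.14 for LOC_Os03g19420, 4.31 for LOC_Os04g45520, 4.94 for LOC_Os01g08440, 2.81 for LOC_Os02g43410 and 1.38 for LOC_Os01g70550. Negative ones were -8.17 for LOC_Os04g58480, -11.55 for LOC_Os10g23900, -2.06 for LOC_Os06g12740, -2.01 for LOC_Os07g47540, -2.88 for 2ODD23, -3.01 for LOC_Os04g52630 and -2.75 for LOC_Os12g02210. OsDRZ1 and OsJAZ5 were at 0 in most oscoi1ab mock libraries and LOC_Os04g58480 in most oscoi2 JA libraries, and LOC_Os10g23900 was near 0 in both groups, so the sizes of their differences are uncertain as well, as is that of OsWR3 with its low oscoi1ab JA levels.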

How the results depend on the processing

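No named gene changed direction in an alternative run where it was called in that run or in the main fit. Sign changes of genes called in neither were not counted. Of 136 named genes 90 were called after JA, of which 61 were called in all 12 fits without 1 library, 55 under all 12 other settings and 42 in both. Without 1 library the DEGs after JA numbered 927 to 1422, those under mock 19 to 420, those of the interaction 743 to 1072, the WT-induced genes lower in oscoi2 431 to 683, the WT-repressed genes higher in oscoi2 297 to 511, and the genes called alike under mock and JA 12 to 58. An FDR limit of 0.05 gave 2207, 622 and 1835 DEGs after JA, under mock and for the interaction, 802 WT-repressed higher genes and 127 called alike. Without a fold minimum the numbers were 2804 after JA, 817 under mock, 1245 WT-induced lower, 1120 WT-repressed higher and 109 alike. The likelihood ratio test gave 553 mock and 1656 interaction DEGs and 119 alike, and DESeq2 542, 1718 and 101. Only the compared libraries gave 3 mock DEGs, 216 WT-repressed higher genes and 2 alike. Library size alone gave 887 WT-repressed higher genes.

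Replicate numbers did not pair the JA libraries of the lines, as the correlations between residuals of same-numbered libraries were 0.262, -0.289 and -0.0402, and not every library correlated best with its own number. With the number as a block there were 1511 DEGs after JA, 401 under mock and 71 called alike, and OsRCLEA8, LOC_Os07g40080 and OsRSL8 lost their call, while the interaction had 1281 DEGs. With a block within each line instead, the interaction had 1283 DEGs, including 935 of the 1042, and 613 WT-induced genes were lower and 499 WT-repressed genes higher in oscoi2. Of the 66 named interaction genes OsJAZ5, OsXTH16, OsLAC10, OsCHS15 and OsILI1 lost their call under this block (FDR 0.0126 to 0.0251).

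Counts are not read pairs, so counting error at low levels is larger than the counts imply. With counts divided by their spacing, 1540 genes were called after JA.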

Other observations

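Some transcription factor families not described above had few DEGs after JA. Of 43 ERF genes 5 were lower in oscoi2 and 2 higher, of 30 NAC genes 4 and 1, and of 20 bZIP genes 4 and 1. Both listed WOX genes, OsWOX6 and OsWOX11, were lower, while 2 of 5 GATA genes were higher. Over all genes 2.26% were lower and 2.22% higher. The families hold few genes, and only those that the study had already listed as DEGs of these libraries. Their counts are therefore not independent evidence.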
